A study of Mus musculus with 6 samples.

Results

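Described here are 9 genes in atrial RNA of lean and obese mice: the PAR bZIP transcription factors Dbp, Tef and Hlf, their antagonist Nfil3, the transcriptional repressors Bhlhe40, Bhlhe41 and Ciart, and Por and Usp2, which are output genes of the circadian clock. They were taken by name from the deposited table, where each matched 1 row, and make up 9 of its 43432 genes. Obese mice were wild-type C57/Bl6J animals fed a high-fat diet (HFD) from 6 weeks of age for 10 weeks, and lean mice were animals of the same strain given control chow over the same period. Right and left atria were taken from 3 mice per diet and sequenced as bulk RNA, so fewer cells of a type and less RNA per cell cannot be told apart. The diet was read from the sample titles, which match the columns of the table. The treatment entry of the sample labels names the opposite diet for all 6 samples, and every direction given here would turn around if that entry were the right one. The hour at which the atria were collected is not given in the sources used here.

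The circadian clock is a loop of transcription factors that runs in nearly every cell, cardiomyocytes included. CLOCK (or NPAS2) and BMAL1, the product of Arntl, activate genes through the E-box, a short DNA motif, and among these genes are the Per and Cry repressors, Dbp, and the nuclear receptors encoded by Nr1d1 and Nr1d2, which in turn repress Arntl and Nfil3 through the ROR element. The PAR bZIP proteins activate a further motif, the D-box, to which NFIL3 binds as a repressor, and the balance between them passes time of day on to output genes. In heart and liver the transcripts of several of these genes, Dbp above all, are known to rise and fall over the day.

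The E-box (CACGTG, read on both strands), the D-box (TTATGTAA or TTACGTAA, both strands) and the ROR element (TAGGTCA, both strands) were searched as exact letters in the RefSeq promoter windows, which run from 250 bases before to 50 bases after each gene start (GRCm38.p6). These starts are those of RefSeq and differ from the gene coordinates printed below. For Dbp, Tef, Nfil3, Bhlhe41, Ciart, Por and Usp2 they lie inside those coordinates, so bases before a start can be inside the printed gene. The windows of Tef, Por and Usp2 lie wholly inside it. The motifs do not overlap one another in these windows. Among all 32851 windows, 7.15% held the E-box, 1.06% a D-box and 2.61% the ROR element. Of the 9 genes, 8 had a window and Tef had 2. The E-box was found in 4 of these 9 windows, from 3 genes: Ciart with 3 copies, Bhlhe41 with 1, and Tef with 1 at each of its starts. The stretches around these copies are shown because they carry the clock's main activating motif, which stands in capitals, on the strand of the gene.
Ciart, chr3:95882247-95882364, minus strand: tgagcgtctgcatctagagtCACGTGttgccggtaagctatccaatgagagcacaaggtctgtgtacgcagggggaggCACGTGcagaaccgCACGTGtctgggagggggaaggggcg
Bhlhe41, chr6:145865548-145865593, minus strand: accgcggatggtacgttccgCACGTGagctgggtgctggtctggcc
Tef, first start, chr15:81802526-81802571, plus strand: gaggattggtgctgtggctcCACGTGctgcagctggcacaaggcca
Tef, second start, chr15:81811256-81811301, plus strand: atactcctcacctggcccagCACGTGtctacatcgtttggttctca

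The copies in Ciart began 116, 58 and 44 bases before the gene start, the one in Bhlhe41 began at -153, and those in Tef began at -127 and -138 from their starts. The ROR element was found in 1 of the 9 windows, that of Nfil3, on the opposite strand and 12 bases before the start. No D-box was found in the windows of the 9 genes. Per3, a core clock gene used below for comparison, held 2 D-boxes, beginning at -205 and -158. The Nfil3 and Per3 stretches are shown with the motif in capitals, and that of Dbp is shown as the promoter of the gene with the widest separation between the groups, which held no exact match.
Nfil3, chr13:52981040-52981071, minus strand: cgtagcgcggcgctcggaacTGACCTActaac
Per3, chr4:151044796-151044890, minus strand: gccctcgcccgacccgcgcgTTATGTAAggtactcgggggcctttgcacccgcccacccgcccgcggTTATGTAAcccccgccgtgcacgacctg
Dbp, chr7:45705147-45705246, plus strand: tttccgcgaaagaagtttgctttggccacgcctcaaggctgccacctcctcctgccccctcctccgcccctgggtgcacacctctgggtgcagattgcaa

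**Figure D1:**
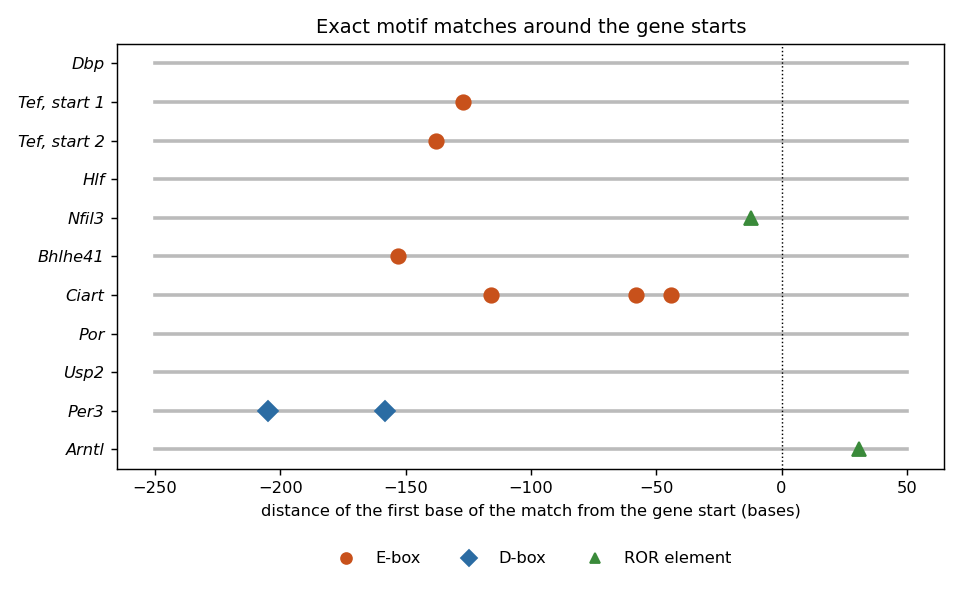
Positions of exact E-box (circles), D-box (diamonds) and ROR element (triangles) matches along the promoter windows of 8 of the 9 genes and of Per3 and Arntl, with the distance of the first base of the match from the gene start in bases on the x axis. The 3 E-boxes of Ciart lie within 116 bases of the start, and the windows of Dbp, Hlf, Por and Usp2 hold no match.

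The libraries held between 15874251 and 28971508 reads on genes, lean mouse 2 being the deepest. Values are normalized counts, that is, reads divided by 1 size factor per mouse, and 3 reads, taken as the smallest signal, correspond to between 2.05 and 3.41 normalized counts (counting error only). All 9 genes lay above this limit in every mouse and passed the filter of a mean of at least 10 normalized counts, with between 40 reads (Ciart, lean mouse 3) and 2998 reads (Usp2, lean mouse 2) per gene and mouse. The genes were chosen by their normalized counts in these same mice, with the difference between the diets known, so that difference is given as a description, with its standard error (SE) and no p-value. Over all 15275 genes tested, 114 (0.746%) had an adjusted p under 0.05 in limma, 40 (0.262%) lower and 74 (0.484%) higher in obese atria. Of the 9 genes, Dbp alone was among them. For 5 of the 9 genes the diets were without overlap, 4 of them lower in obese atria and 1 higher, beside 18.0% of all genes tested (9.17% lower and 8.86% higher), and nothing is read from these counts. In DESeq2, where 3.16% of all genes passed (1.22% lower and 1.94% higher), 4 of the 9 genes did, Dbp, Tef and Hlf lower and Nfil3 higher. The median log2 difference, obese minus lean, was -0.16 over the 9 genes and 0.00 over all genes tested. The labels do not say more of the mice than their diet, strain and number, and the errors given are those between these 6 samples.

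**Figure D2:**
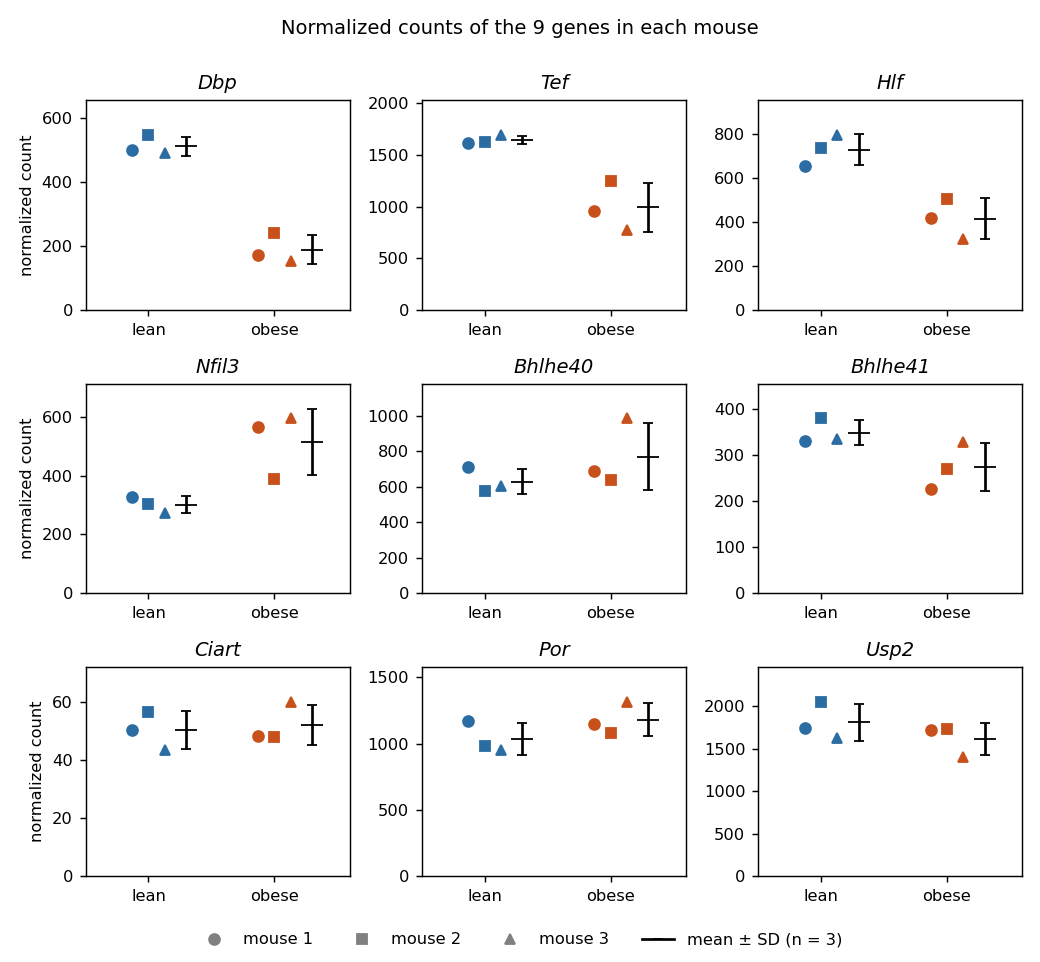
Normalized counts (y axis, starting at 0) of the 9 genes in lean (blue) and obese (orange) atria, with 1 symbol per mouse and the mean ± SD of 3 mice beside them. Dbp, Tef, Hlf and Bhlhe41 are lower in every obese mouse than in any lean mouse, Nfil3 is higher, and the other genes overlap.

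The 3 PAR bZIP genes were lower in every obese mouse than in any lean mouse. DBP, named for binding the D site of the albumin promoter, is the family member with the strongest known daily rhythm. Dbp (ENSMUSG00000059824, chromosome 7, 45705088 to 45710155, plus strand, GRCm38) stood at 170.8, 240.7 and 154.5 normalized counts in obese mice 1, 2 and 3, against 499.4, 546.8 and 490.8 in lean mice 1, 2 and 3. The highest obese mouse was thus well below the lowest lean mouse. Means were 188.6 ± 45.8 and 512.3 ± 30.2 (SD, n = 3), so that obese atria held 36.8% of the lean level, a log2 difference of -1.46 (SE 0.18, 95% interval -1.86 to -1.07). Exons of Sphk2, a sphingosine kinase gene on the opposite strand, share 539 bases with those of Dbp, 18.0% of its exon length, and the libraries were made with a directional kit, but whether strand was used in assigning reads is not given in the sources used here. Sphk2 itself averaged 563.7 ± 32.0 normalized counts in the obese mice, against 657.5 ± 62.6 (SD, n = 3), for a log2 difference of -0.22 (adjusted p = 0.539).

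TEF, thyrotroph embryonic factor, binds the same motif as DBP. Tef (ENSMUSG00000022389, chromosome 15, 81802421 to 81826861, plus strand) stood at 958, 1248 and 771 normalized counts in the obese mice, against 1617, 1624 and 1692 in lean mice. The highest lean mouse exceeded the lowest by 4.65%, whereas the highest obese mouse exceeded the lowest by 61.9%. The means were 993 ± 240.4 and 1644 ± 41.5 (SD, n = 3), and the log2 difference was -0.76 (SE 0.16, 95% interval -1.11 to -0.40). HLF, hepatic leukemia factor, is the third member of the family. Hlf (ENSMUSG00000003949, chromosome 11, 90336536 to 90390895, minus strand) stood at 419, 507 and 323 normalized counts in the obese mice against 655, 736 and 796 in the lean mice, with means of 416 ± 92.2 and 729 ± 70.6 (SD, n = 3) and a log2 difference of -0.83 (SE 0.17, 95% interval -1.21 to -0.45). All 3 genes had the same order among the obese mice, with mouse 3 lowest and mouse 2 highest, and among the lean mice Tef and Hlf followed another order than Dbp.

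Nfil3, which encodes the repressor of D-box genes also known as E4BP4, was the only one of the 9 genes higher in every obese mouse than in any lean mouse. Nfil3 (ENSMUSG00000056749, chromosome 13, 52967209 to 52981073, minus strand) had 565, 388 and 595 normalized counts in obese mice 1, 2 and 3, and 328, 305 and 273 in the lean mice. Obese mouse 2, which had the highest values of the 3 PAR bZIP genes among the obese mice, had the lowest value of Nfil3 among them. The means were 516 ± 112.1 and 302 ± 27.5 (SD, n = 3), the obese level being 171% of the lean, with a log2 difference of 0.75 (SE 0.18, 95% interval 0.35 to 1.14).

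The activators and their repressor were set against each other within each mouse. The ratio of Dbp to Nfil3 reads was 0.302, 0.621 and 0.260 in obese mice, against 1.52, 1.80 and 1.80 in lean mice: Dbp had more reads than Nfil3 in each lean mouse and fewer in each obese mouse. This ratio joins 2 genes that differ in opposite directions by choice, and it adds no independent value to theirs. On the scale of normalized counts per kilobase (kb) of exon, the sum of Dbp, Tef and Hlf was 251 ± 59.1 in obese atria, against 489 ± 16.3 (SD, n = 3) in lean. Nfil3 per kb was 1.08 ± 0.443 times this sum in obese and 0.305 ± 0.0369 times in lean atria. Within the sum, Dbp made up 25.1% ± 1.29 in obese and 35.0% ± 1.88 in lean atria, Tef 50.1% ± 0.505 and 42.7% ± 1.23, and Hlf 24.8% ± 1.00 and 22.3% ± 1.54 (SD, n = 3). Tef was therefore the largest share in both groups, and the share of Dbp was smaller in each obese mouse (23.6% to 26.1%) than in any lean mouse (32.9% to 36.6%).

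The 3 repressors did not share a pattern. BHLHE40 and BHLHE41, also called DEC1 and DEC2, are related basic helix-loop-helix repressors that compete for the E-box. Bhlhe40 (ENSMUSG00000030103, chromosome 6, 108660629 to 108666925, plus strand) stood at 688, 636 and 985 normalized counts in the obese mice, against 709, 574 and 604 in lean mice. The groups overlapped, with obese mouse 3 above the rest, and the log2 difference was 0.27 (SE 0.17, 95% interval -0.11 to 0.65). Bhlhe41 (ENSMUSG00000030256, chromosome 6, 145858243 to 145865558, minus strand) stood at 225, 269 and 328.3 normalized counts in the obese mice, against 330.3, 379 and 334 in lean mice. The groups did not overlap, but obese mouse 3 was only just below lean mouse 1, and the 95% interval of the log2 difference of -0.36 (SE 0.17) ran from -0.73 to 0.01. Gm43909, annotated on the opposite strand, shares 1280 exon bases with Bhlhe41, 19.0% of its exon length. The ratio of Bhlhe41 to Bhlhe40 reads was 0.327, 0.423 and 0.333 in obese mice, against 0.466, 0.661 and 0.553 in lean mice. It was lower in each obese mouse than in any lean mouse. Like the ratio of Dbp to Nfil3, it joins genes chosen with their opposite differences known, and it adds no independent value to theirs. How often ratios of other genes separate the diets was not tested.

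CIART, also known as CHRONO, is a repressor of CLOCK and BMAL1. Ciart (ENSMUSG00000038550, chromosome 3, 95878503 to 95882251, minus strand), whose promoter held 3 E-boxes, stood at 48.2, 47.9 and 60.2 normalized counts in the obese mice, against 50.4, 56.8 and 43.7 in lean mice. The groups overlapped, with a log2 difference of 0.05 (SE 0.27, 95% interval -0.54 to 0.64). With between 40 and 83 reads per mouse, it had the widest interval of the 9 genes.

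The 2 output genes overlapped between the groups. POR is the cytochrome P450 oxidoreductase, which passes electrons from NADPH to cytochrome P450 enzymes and heme oxygenase. Por (ENSMUSG00000005514, chromosome 5, 135670033 to 135735326, plus strand) stood at 1148, 1077 and 1316 normalized counts in the obese mice, against 1175, 982 and 950 in lean mice, with a log2 difference of 0.19 (SE 0.13, 95% interval -0.10 to 0.48). USP2 is a deubiquitinating enzyme. Usp2 (ENSMUSG00000032010, chromosome 9, 44067021 to 44095627, plus strand) stood at 1718, 1734 and 1403 normalized counts in the obese mice, against 1746, 2052 and 1630 in lean mice, with a log2 difference of -0.16 (SE 0.13, 95% interval -0.45 to 0.13). Both intervals held 0 and lay apart from that of Dbp, while the interval of Por overlapped that of Nfil3.

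**Figure D3:**
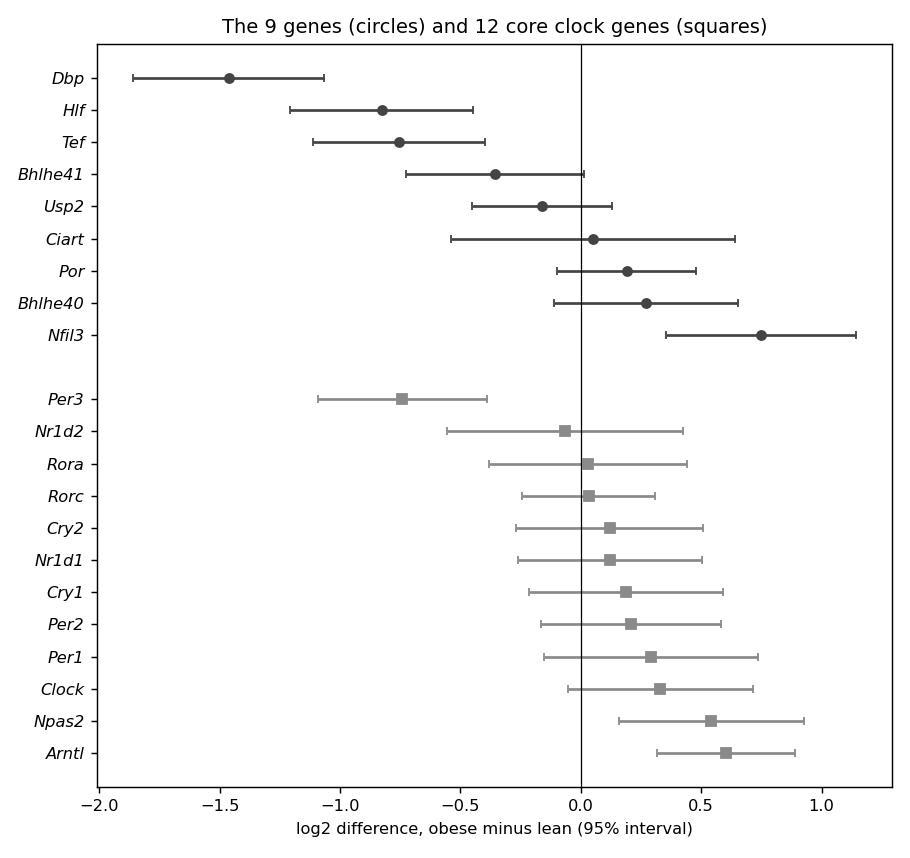
Log2 difference, obese minus lean, on the log2(normalized count + 1) scale (x axis) with its 95% interval from limma, for the 9 genes (circles) and the 12 core clock genes tested (squares). Dbp lies farthest from 0 at -1.46, and among the core clock genes Per3 is at -0.74 and Arntl at 0.60.

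The obese mice differed more among themselves than the lean mice did for most of the 9 genes. The SD of the log2 values was larger among the obese for 7 of the 9 genes, beside 56.7% of all genes tested. Its median over the 9 genes was 0.33 in obese and 0.14 in lean atria, where the medians over all genes were 0.22 and 0.19. The order of the obese mice recurred: mouse 3 was lowest and mouse 2 highest for Dbp, Tef, Hlf and Usp2, and the reverse held for Nfil3, Bhlhe40, Ciart and Por. The first order covered 4 of the 9 genes and 18.7% of all genes tested, the second 4 and 19.5%, and both together 8 (all but Bhlhe41) and 38.2%. Obese mouse 3 was lowest of the obese mice for 4 of the 9 genes and 36.2% of all genes, and highest for 5 and 36.1%, so that it was at an end for all 9 and for 72.2% of all genes. Obese mice 1 and 2 were at an end for 61.8% and 65.8% of all genes. Its library held the smallest share of mitochondrial reads, 19.5%, against 22.5% to 30.7% in the other mice, and the part of this in the order of the mice was not tested.

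**Figure D4:**
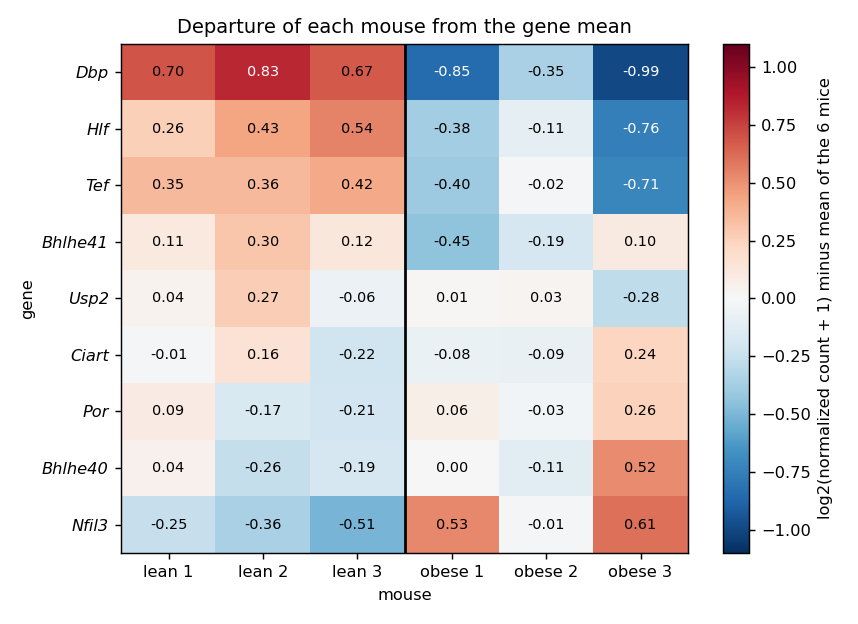
Log2(normalized count + 1) of each gene (rows) in each mouse (columns) minus the mean of the 6 mice, as color and number. Dbp, Hlf and Tef are above their means in the lean and below them in the obese mice, with obese mouse 2 nearest to 0, at -0.35, -0.11 and -0.02.

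The levels of the 9 genes were ordered on the scale of normalized counts per kb of exon. In lean atria Usp2 was highest at 375 ± 45.3 per kb, followed by Por at 258 ± 30.2, Tef at 209 ± 5.27, Dbp at 171 ± 10.1, Nfil3 at 149 ± 13.6, Bhlhe40 at 134 ± 15.1, Hlf at 109 ± 10.6, Bhlhe41 at 51.8 ± 4.03 and Ciart at 22.2 ± 2.89 (SD, n = 3). Only 1 pair of neighbors in this order, Nfil3 and Bhlhe40, had ranges that overlapped. In obese atria the order was Usp2 at 336 ± 38.7 per kb, Por at 294 ± 30.6, Nfil3 at 255 ± 55.3, Bhlhe40 at 164 ± 40.0, Tef at 126 ± 30.6, Dbp at 63.0 ± 15.3, Hlf at 62.3 ± 13.8, Bhlhe41 at 40.8 ± 7.71 and Ciart at 23.1 ± 3.10 (SD, n = 3). Here 6 of the neighboring pairs overlapped, and only Tef with Dbp and Bhlhe41 with Ciart were separate. Both ends of the order were the same in the 2 groups, whereas Tef and Dbp stood above Nfil3 and Bhlhe40 in lean atria and below them in obese atria.

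**Figure D5:**
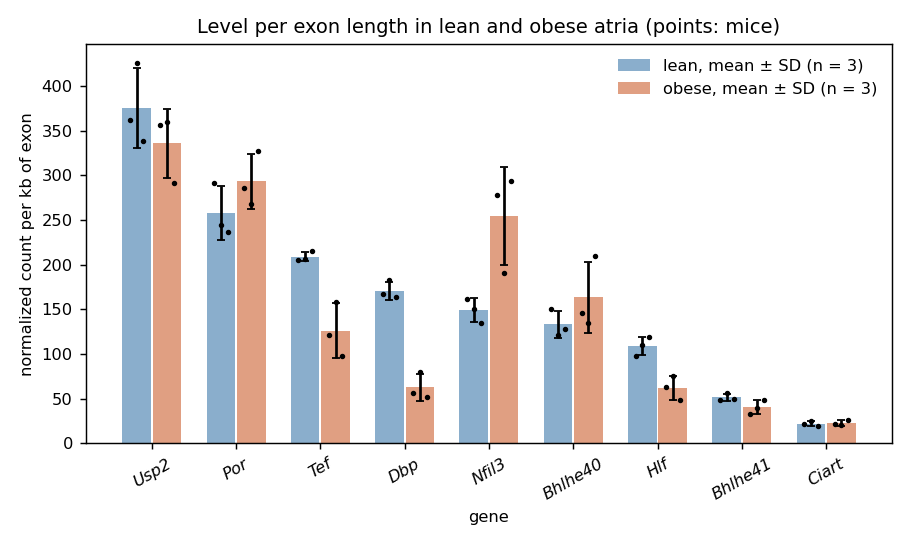
Normalized counts per kb of exon (y axis, from 0) of the 9 genes in lean (blue) and obese (orange) atria, as the mean ± SD of 3 mice with a point per mouse, in the order of the lean levels. Usp2 and Por are highest and Ciart lowest in both groups, and Nfil3 moves from 149 to 255 per kb as Dbp goes from 171 to 63.0.

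Other genes of the pathway were examined in 7 lists with 59 genes, 54 of them tested, and these tests were adjusted over all 15275 genes. Of the 54, 2 passed the limma threshold, both higher in obese atria. Over all genes tested 6.66% were higher and 5.55% lower at an unadjusted p under 0.05 in limma, edgeR called 0.570% and DESeq2 3.16%, and the counts of these lists are read against those shares. None of the 12 core clock genes tested (of 13) passed the limma threshold, 10 having differences above 0 and 2 below. At an unadjusted p under 0.05, 2 were higher and 1 lower, while edgeR called 0 and DESeq2 called 2. Arntl, the gene of BMAL1, stood at 910, 736 and 802 normalized counts in the obese mice against 518, 508 and 581 in the lean mice, with no overlap (log2 difference 0.60, SE 0.13, adjusted p = 0.0670). Its window held a ROR element beginning 31 bases after the start, on the strand of the gene, whereas that of Nfil3 lay before the start on the opposite strand. Of the 16 windows of the core clock genes, 1 held the ROR element, 1 a D-box and 2 an E-box. A link between motifs and differences was not tested. Per3, a period gene with 2 D-boxes in its window, stood at 154, 194 and 160.2 normalized counts in the obese mice against 268, 300.4 and 279 in the lean mice, again with no overlap (log2 difference -0.74, SE 0.16, adjusted p = 0.0675). Npas2, a partner of BMAL1, had a log2 difference of 0.54 (adjusted p = 0.217). The ranges of Nr1d1, the repressor gene acting on the ROR element, overlapped at 1378, 1596 and 2085 normalized counts in obese and 1489, 1306 and 1834 in lean mice (log2 difference 0.12, adjusted p = 0.835). Per1 and Per2, the other period genes, had log2 differences of 0.29 and 0.21, on the opposite side from Per3, and both overlapped. The 6 modifiers of clock proteins that were tested (of 7, kinases and ubiquitin ligase subunits) held no gene past the threshold in limma, edgeR or DESeq2, and 1 higher gene at an unadjusted p under 0.05. Among them, the log2 difference was 0.32 for Fbxw11 and -0.24 for Btrc.

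Genes known as targets of the PAR bZIP factors did not pass the limma threshold either. Of 8 genes, 6 were tested, and 1 was higher at an unadjusted p under 0.05. In this list edgeR called 0 genes and DESeq2 called 1. Cyp2b10, a cytochrome P450, had 228, 160.1 and 90.9 normalized counts in obese and 80.6, 16.4 and 38.3 in lean mice (log2 difference 1.97, SE 0.51, adjusted p = 0.117), which is on the opposite side from the PAR bZIP genes. Alas1, the first enzyme of heme synthesis, stood at 1099, 1284 and 3235 normalized counts in the obese mice, on either side of the lean mice with 2206, 2400.1 and 2120.5 (log2 difference -0.43, adjusted p = 0.641). Nr1i3, the nuclear receptor CAR, had a log2 difference of -0.09. Cyp2a5 and Cyp7a1, which are liver enzymes, had no read in any mouse. The 7 further rhythmic output genes held none past the threshold in limma, edgeR or DESeq2 and 2 higher genes at an unadjusted p under 0.05, with log2 differences of 0.99 for Lonrf3, 0.46 for Tsc22d3 and 0.42 for Herpud1 as the largest.

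Of the 10 cardiac genes linked to the clock, limma called 2 higher and 0 lower, while edgeR called 2 and DESeq2 called 5. At an unadjusted p under 0.05 in limma, 3 were higher and 3 lower, and 6 of the 10 differences were below 0. Pdk4, the kinase that restrains pyruvate oxidation, stood at 58780.0, 64656 and 28363 normalized counts in the obese mice against 5700.2, 4800.3 and 5656 in the lean mice (log2 difference 3.15, SE 0.26, adjusted p = 0.000719 by limma). Ucp3, a mitochondrial carrier, had 1778, 2003 and 691 against 212, 244 and 151 (log2 difference 2.76, SE 0.35, adjusted p = 0.00937 by limma). For both genes obese mouse 2 was highest and obese mouse 3 lowest of the obese mice. The PAR bZIP genes had the same order, as did 18.7% of all genes tested, but they were lower in obese atria where Pdk4 and Ucp3 were higher. Klf15, a transcription factor under clock control in heart, had a log2 difference of 0.71 (adjusted p = 0.129), Kcnip2, a subunit of the transient outward potassium channel, -0.63 (adjusted p = 0.0886), and Tcap, a sarcomere protein, -0.63 (adjusted p = 0.134).

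The C/EBP family binds motifs related to the D-box. Of 5 genes, 4 were tested, none passed the limma threshold, 3 were higher at an unadjusted p under 0.05, edgeR called 0 and DESeq2 called 3. Cebpb had a log2 difference of 1.16 (SE 0.24, adjusted p = 0.0657), Cebpd of 0.95 (SE 0.19, adjusted p = 0.0550) and Cebpg of 0.55 (adjusted p = 0.144), each without overlap, as were 8.86% of all genes on the higher side. Among the 9 enzymes that receive electrons from POR none passed the limma threshold, 2 were higher at an unadjusted p under 0.05, edgeR called 0 and DESeq2 called 1. Their largest log2 differences were 1.03 for Cyp2e1, 0.93 for Cyp1b1 (adjusted p = 0.120) and 0.53 for Cyp4b1.

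Markers of the cell types in the tissue were examined beside these values. Atrial markers were abundant in all mice, but their sum was lower in obese mice 1 and 2 (286484 and 287100.0 normalized counts) than in obese mouse 3 (519638) and the lean mice (441775 to 481470), with 0 of 6 called in limma, edgeR or DESeq2 and 2 lower at an unadjusted p under 0.05. This sum is made up mostly of Nppa, Myl7 and Myl4, the atrial peptide and myosin light chain genes. Sln, sarcolipin, was at 19693 to 23714 normalized counts in obese mice, below the 25151 to 27600 of the lean mice (adjusted p = 0.352). The difference was below 0 for 5 of the 6 atrial markers and above 0 for Bmp10 alone (log2 difference 0.62), whose groups overlapped. Of the brown adipocyte markers, limma called Ucp1 (log2 difference 4.43, adjusted p = 0.0446) and Cidea (1.21, adjusted p = 0.0310) higher among the 3 tested of 4. Dio2, the third, had a log2 difference of 1.32 (adjusted p = 0.0591 by limma), and all 3 were higher without overlap. With edgeR only Cidea was called (adjusted p = 0.0342, and 0.0618 for Ucp1), and with DESeq2 all 3 were. Their summed level was 616 to 1283 normalized counts in obese and 187 to 330 in lean mice. The white adipocyte markers summed to 11379 to 17698 in obese and 6897 to 10729 in lean mice, with 0 of 8 called in limma and edgeR, 2 called in DESeq2 and 2 higher at an unadjusted p under 0.05. Fabp4 (log2 difference 0.81, adjusted p = 0.108) and Plin4 (0.73, adjusted p = 0.0661) were the 2 that did not overlap, while Adipoq, Plin1, Cidec, Cfd, Retn and Lep did, Lep with a log2 difference of -1.41 (adjusted p = 0.526). Fabp4 and Plin4 also made up most of the white adipocyte sum in every mouse. Macrophage markers summed to 4281 to 4983 in obese and 3536 to 3983 in lean mice. Cd163 (log2 difference 0.95, adjusted p = 0.0310) was the 1 of 5 called in limma, edgeR and DESeq2 also calling 1. The difference was above 0 for 4 of the 5, and 2 were higher at an unadjusted p under 0.05. Cd163 and Cd68 (log2 difference 0.37) did not overlap. Endothelial markers summed to 13328 to 14926 in obese and 11105 to 12007 in lean mice, with 0 of 5 called in limma and edgeR, 1 called in DESeq2 and 1 higher at an unadjusted p under 0.05. Pecam1 (log2 difference 0.57) was the 1 that did not overlap, while Cdh5, Kdr, Tek and Emcn did, with log2 differences of 0.04 to 0.18. Fibroblast sums overlapped, at 31294 to 32698 in obese and 31128 to 36489 in lean mice (0 of 5 called by the 3 tools, and 0 at an unadjusted p under 0.05). Ventricular sums also overlapped, at 5220 to 7043 in obese and 6036 to 11934 in lean mice, lean mouse 2 being highest (0 of 4 called by the 3 tools, and 1 lower at an unadjusted p under 0.05). Among all these markers only Elovl3, a brown adipocyte gene, was at 0 in any mouse (lean mice 2 and 3). The part of these cell types in the values of the 9 genes was not tested.

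Genes with the most similar pattern over the 6 mice were found by the root mean square difference of log2 values centered on each gene's mean, over all genes tested. Nearest to Dbp were 1700047M11Rik (0.14), Cdh23 (0.18), Gm26795 (0.19), Akr1c19 (0.21) and Gm12996 (0.21), against a median of 0.79 over all genes. Of these, Cdh23 encodes a cadherin, Akr1c19 an aldo-keto reductase, and the others are noncoding or antisense transcripts. Cdh23 had 41.2, 47.9 and 35.2 normalized counts in the obese and 86.2, 123.2 and 120.2 in the lean mice. Gm12996, Akr1c19 and 1700047M11Rik were low, with means of 5.94, 10.5 and 13.9 normalized counts in the obese mice. The PAR bZIP relatives were farther from Dbp than these 5 genes but nearer than most, Hlf at 0.34 (rank 35) and Tef at 0.36 (rank 56). Nearest to Nfil3 were Irak3 (0.099), Ifrd1 (0.11), Ifi207 (0.11), Igsf6 (0.11) and Il2rg (0.11), against a median of 0.49. Irak3 encodes a kinase-like inhibitor of Toll-like receptor signaling and Il2rg the common gamma chain of interleukin receptors. Irak3 had 205, 143 and 183 normalized counts in the obese and 118, 105 and 104 in the lean mice. Among the 9 genes Bhlhe40 came nearest to Nfil3, at 0.29, followed by Por at 0.31 and Ciart at 0.39, and the PAR bZIP genes were farther than the median, at 0.85 to 1.17.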

How the data were processed

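Atrial RNA of 3 obese and 3 lean mice was sequenced by the authors (single-end, 50 bases). They aligned the reads with STAR to GRCm38 (Ensembl 79), kept uniquely mapped reads and assigned them to genes with Salmon. The deposited signal per gene and mouse is the read count divided by 1 DESeq2 size factor per mouse, called normalized count here. For each mouse 100.0% of the values were whole multiples of 1 read within 0.001, which gave the reads. The authors' own comparison columns (fold changes, p-values and statistics) were not used.

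Groups were compared with limma 3.58.1 (R 4.3.3, variance trend) on log2(normalized count + 1), a scale that understates changes of low genes, for the 15275 genes with a mean of at least 10, with two-sided tests, Benjamini-Hochberg adjustment and a threshold of 0.05. edgeR 4.0.16 and DESeq2 1.42.0 on the reads were alternatives, and limma was also tested on simulated data. The table writes gene names in capitals, so names were matched ignoring case (9 of 9 genes). GENCODE M21 gave names for 42462 of 43432 identifiers (97.8%), exon lengths and coordinates, and 1 row without a name held 0% of the values. The genes and lists were chosen with earlier results of these data known. All 9 genes are named, with every list gene past the threshold, at most the 3 others per list with the largest difference, and the 5 genes nearest to Dbp and to Nfil3. Nr1d1, Per1, Per2, Sphk2 and the cell type markers with values were named in addition, after their values were seen. Protein sequences were not analysed here. The value of 1 gene of the lists is not reported here.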

Additional observations from a re-analysis of the deposited data

How the results depend on the processing

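The differences of the 9 genes were recomputed under 15 alternatives: another pseudocount, 2 other filters, no variance trend, 2 other scalings, the replicate block, each mouse left out, edgeR and DESeq2. All 135 values moved by less than 1 SD between mice. Ciart alone changed sign, in 2 of the 15, ranging from -0.06 to 0.14. Dbp ranged from -1.65 to -1.33, Tef from -0.93 to -0.59, Hlf from -0.98 to -0.66, Nfil3 from 0.63 to 0.94, Bhlhe40 from 0.08 to 0.39, Bhlhe41 from -0.49 to -0.22, Por from 0.11 to 0.28 and Usp2 from -0.23 to -0.06. The values nearest to 0 were without obese mouse 3 for Dbp, Tef, Hlf, Nfil3, Bhlhe40, Por and Usp2. Usp2 was also at -0.07 without lean mouse 2, and Bhlhe41 was nearest to 0 without obese mouse 1. The calls moved far more, and the cause was not tested. Without the variance trend 0 genes were called (1717 at an unadjusted p under 0.05), and with DESeq2 483. Without obese mouse 1, 2 or 3 the number was 50, 24 or 318, and without lean mouse 1, 2 or 3 it was 48, 14 or 19. Of the 9 genes, those called lower were 1 (Dbp) in the limma test, 2 without the filter (Dbp and Hlf), 0 without the trend, 3 with DESeq2 (Dbp, Tef and Hlf, where 1.22% of all genes were lower) and 0 to 2 with a mouse left out. They were 0 without lean mouse 2 or lean mouse 3, and Dbp and Tef without obese mouse 2. Those called higher were 0, and 1 with DESeq2 (Nfil3, where 1.94% were higher). Of the 9 genes, 1 was higher without overlap, and 1 to 3 with a mouse left out (3 without lean mouse 1, where 13.7% of all genes were), and 4 were lower, and 4 to 5 with a mouse left out (5 without lean mouse 3, where 15.7% of all genes were). In the 7 lists, 2 genes were called higher and 0 lower by limma. The higher ones were 4 without the filter, 0 without the trend, 9 with DESeq2, and 1 to 5 with a mouse left out (1 without lean mouse 3, 5 without obese mouse 3). The lower ones were 3 with DESeq2, and 0 to 1 with a mouse left out (1 without obese mouse 3). The share of calls that were higher, 64.9%, ranged from 58.3% without obese mouse 2 to 77.1% without lean mouse 1. At 40 to 83 reads, a difference of Ciart within its interval was not detectable.

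The titles number the mice 1 to 3 in both groups, but nothing says that a number pairs them. Deviations from the group means correlated at 0.12, -0.03 and -0.004 between mice of the same number, and obese mouse 2 correlated best with lean mouse 3 (0.16). With the replicate number as a block, 157 genes were called in place of 114, Dbp alone among the 9 genes, and 6 list genes were called higher.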
